A study of Mus musculus with 22 samples.

Results

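Brain endothelial cells were sorted by the surface protein CD31, and transcripts known as markers of astrocytes, oligodendrocytes, their precursors and neurons were still read in their libraries. The 54 transcripts described here were chosen by name, as markers of these 4 cell classes, from a table of 37991 genes: 16 astrocyte, 10 oligodendrocyte, 10 precursor and 18 neuron markers. All 54 were found in the table, and every one is shown in each of the 22 libraries. The choice of members used no measured value, but it was made with earlier results of these data known.

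Mice of 6 groups were compared in 3 experiments, and the question asked of the endothelium was how it responds when glutamatergic neurons are driven, silenced or stimulated through the senses. In the activation group (4 libraries) the genotype was C57BL/6 CamKIIa-tTA; TRE-hM3Dq, with an excitatory designer receptor (DREADD), and in the silencing group (4 libraries) it was CamKIIa-tTA; TRE-hM4Di, with an inhibitory one. The CamKIIa promoter confines the tTA driver largely to forebrain excitatory neurons. Each group had 4 libraries of littermate controls, which carried no DREADD according to the series' design text, although their genotype label is that of the treated mice. All of these mice received the DREADD ligand CNO, and cortex and hippocampus were taken 3 hours later. In the whisker experiment, wild-type C57BL/6 mice either explored, with whiskers intact, a newly enriched space in darkness (whisker-plus, 3 libraries) or were kept whiskerless in a bare cage (whisker-minus, 3 libraries), and each library pooled barrel cortices of 5 pairs. The labels used here name neither the non-endothelial markers stained in the sort nor the age of the mice.

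Astrocytes wrap brain vessels with endfeet, take up glutamate and potassium, and are coupled by gap junctions. Oligodendrocytes make myelin, the lipid-rich sheath of axons, and arise from precursors that carry the receptor Pdgfra and the proteoglycan Cspg4. Neurons express synaptic vesicle, cytoskeletal and transmitter genes that endothelial cells keep low. The classes are not sealed: Cspg4 and Pdgfra are also known from pericytes and perivascular fibroblasts, Ptprz1 from astrocytes, and Vcan and Meg3 from vascular cells.

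Promoters were matched for 39 of the 54 members in RefSeq (build GRCm38.p6), as 300 bases from 250 before to 50 after the annotated start of the gene. The E-box CAGCTG, which reads the same on both strands, was present in 7 of the 47 promoters of these genes and in 16.3% of 32851 promoters of all genes. TATAAA was present on either strand in 5 of the 47 and in 13.6% of all. The promoters of Slc1a2 and Slc1a3, a pair of astrocyte glutamate transporters both highest in whisker-minus 2 and 3, are shown with the E-box and with TATAAA (here as TTTATA, on the other strand) in capitals. Of the promoters of Syt1, which had the widest fold range among the neuron markers with reads in every library, the one with an E-box is shown. The promoter of Mal, the oligodendrocyte marker that departed from its class, held neither. None of the promoters shown held both motifs.
Slc1a2 promoter, GRCm38.p6, chr2:102706188-102706487, plus strand: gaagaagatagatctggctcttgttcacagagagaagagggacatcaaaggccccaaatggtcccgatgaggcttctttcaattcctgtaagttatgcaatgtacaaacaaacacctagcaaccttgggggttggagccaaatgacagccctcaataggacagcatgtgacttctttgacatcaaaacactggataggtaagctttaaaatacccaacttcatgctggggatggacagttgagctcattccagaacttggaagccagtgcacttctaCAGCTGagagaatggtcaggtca
Slc1a3 promoter, GRCm38.p6, chr15:8710758-8711057, minus strand: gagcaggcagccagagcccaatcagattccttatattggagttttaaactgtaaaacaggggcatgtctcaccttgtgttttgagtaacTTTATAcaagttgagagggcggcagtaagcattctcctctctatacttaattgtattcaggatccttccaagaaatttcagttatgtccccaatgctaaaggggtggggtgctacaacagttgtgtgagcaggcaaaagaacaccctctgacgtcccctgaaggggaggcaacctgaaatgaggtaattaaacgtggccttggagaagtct
Syt1 promoter, GRCm38.p6, chr10:109009062-109009361, minus strand: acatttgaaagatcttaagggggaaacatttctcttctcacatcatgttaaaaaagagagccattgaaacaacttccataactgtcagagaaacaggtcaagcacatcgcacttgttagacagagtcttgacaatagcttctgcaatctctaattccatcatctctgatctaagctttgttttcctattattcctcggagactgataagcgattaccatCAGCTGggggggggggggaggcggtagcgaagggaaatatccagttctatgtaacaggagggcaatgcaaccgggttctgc
Mal promoter, GRCm38.p6, chr2:127656646-127656945, minus strand: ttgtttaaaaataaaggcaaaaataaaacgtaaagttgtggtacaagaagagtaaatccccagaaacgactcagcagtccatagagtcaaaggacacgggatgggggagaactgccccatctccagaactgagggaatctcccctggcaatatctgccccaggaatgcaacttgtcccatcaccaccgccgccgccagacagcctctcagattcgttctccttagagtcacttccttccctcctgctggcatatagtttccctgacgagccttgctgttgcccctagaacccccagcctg

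In Slc1a2 the E-box lay after the annotated start, in Slc1a3 the TATAAA match began 161 bases before it, and in Syt1 the E-box began 31 bases before it. A match of letters describes the window and is no evidence of binding. Members that were not matched to a promoter are Olig1, Celf4, Snap25, Gpr17, Nefl, Sox9, Aqp4, C1ql1, Nefm, Stmn2, Camk2a, Atp1b2, Grin2b, Mbp and Sox10.

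Each library held between 18387666 and 57673270 reads in genes, with the 6 whisker libraries the deepest. The values are reads of a gene per 1000000 reads of the library (CPM). In keeping with the label of the sort, 12 endothelial markers, among them Cldn5, Pecam1 and Cdh5, had a summed level between 29540 and 36170 CPM in all libraries. The 54 neural markers together reached 1124 to 2970 CPM, of which Mal alone gave 505 to 1885 CPM.

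Per length of exon, the 4 classes were far apart. The median gene of the endothelial list averaged 431 CPM per kilobase over the 22 libraries, the median astrocyte marker 4.59, the median precursor marker 1.49 (9 members with a known length), the median neuron marker 0.19 and the median oligodendrocyte marker 0.12. Astrocyte transcripts were therefore the most abundant neural reads per length and mature oligodendrocyte transcripts, Mal and Cnp apart, the least. Among other non-endothelial cells, the median pericyte marker averaged 9.66 and the median microglial marker 1.27 CPM per kilobase.

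**Figure D1:**
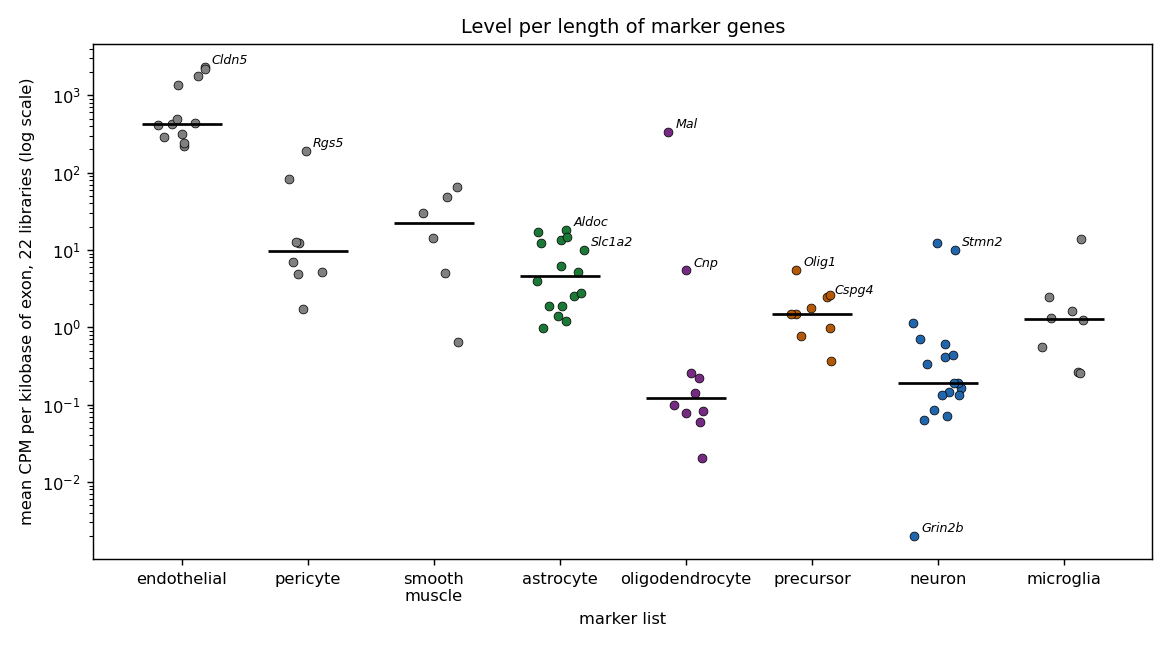
Mean level of each marker gene over the 22 libraries, in CPM per kilobase of exon on a log axis, for 8 marker lists. Each point is a gene and each bar the median of its list; Mal, Stmn2, Nrgn and Cnp stand far above the other members of their classes, and most neural markers lie far below the endothelial list.

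Astrocyte markers were present in every library. Each of the 16 reached at least 1 CPM in all 22 libraries. Per length the highest was Aldoc, a glycolytic aldolase, at 18.3 CPM per kilobase on average, followed by Atp1b2, a sodium pump subunit, at 17.1, the receptor Gpr37l1 at 14.7, the growth factor receptor Fgfr3 at 13.4, the gap junction protein Gja1 at 12.1 and the glutamate transporter Slc1a2 at 10.1. The lowest were Slc4a4, a bicarbonate transporter, at 1.19 and Aldh1l1, a folate enzyme, at 0.989. The water channel Aqp4 and the filament protein Gfap, the textbook markers of endfeet and of reactive astrocytes, averaged 1.88 and 1.89 CPM per kilobase.

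Among the 22 libraries 2 stood far above the rest in astrocyte RNA. In the whisker experiment the summed level of the 16 astrocyte markers was 448, 1714 and 1483 CPM in whisker-minus 1, 2 and 3 and 484, 531 and 512 CPM in whisker-plus 1, 2 and 3. The group means were 1215 ± 674 CPM and 509 ± 23.7 CPM (SD, n = 3 each). Whisker-minus 2 and 3 thus stood apart from the other 4 libraries of the experiment, and whisker-minus 1 lay with, and below, the whisker-plus libraries. Whisker-minus 2 and 3 were the highest 2 of the 6 libraries for 16 of 16 astrocyte markers, where 20.3% of all 12776 tested genes had that order.

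Slc1a2 was measured at 79.6, 470.5 and 489 CPM in whisker-minus 1, 2 and 3 and at 82.7, 111 and 117 CPM in whisker-plus. Aqp4 was measured at 5.13, 25.4 and 24.5 CPM in whisker-minus and at 5.03, 7.61 and 6.4 CPM in whisker-plus. Acsbg1, an acyl-CoA synthetase, was measured at 9.85, 62.2 and 46.9 CPM in whisker-minus and at 9.24, 11.6 and 8.89 CPM in whisker-plus. For these 3 genes whisker-minus 1 was inside the range of whisker-plus or just below it, so the groups overlapped. Gja1 was the smoothest of the abundant members, with 122, 189 and 166 CPM in whisker-minus against 117, 104 and 98.7 CPM in whisker-plus, and its groups did not overlap. Sox9, a transcription factor of astrocytes, had 8.46, 16.3 and 9.72 CPM in whisker-minus against 8.4, 5.19 and 3.84 CPM in whisker-plus, and its groups did not overlap either, with whisker-minus 1 just above whisker-plus 1. Of all tested genes 13.4% had whisker-plus libraries that all lay below the whisker-minus libraries, and 5.65% had them all above. Of the 34 tested members 4 had them all below (Camk2a, Cnp, Gja1 and Sox9) and 2 all above (Gad1 and Mal). Fgfr3 had 64, 149.5 and 148 CPM in whisker-minus and 92.4, 99.7 and 105 CPM in whisker-plus. Here whisker-minus 1 lay below and the other two above every whisker-plus library. Atp1b2 had 40.2, 159.6 and 119 CPM in whisker-minus and 44.2, 56.1 and 41.8 CPM in whisker-plus. Aldoc had 38.1, 237.5 and 141 CPM in whisker-minus and 41.3, 45.3 and 33.8 CPM in whisker-plus. Slc1a3 had 32.8, 147 and 130 CPM in whisker-minus and 31.9, 34.2 and 44.9 CPM in whisker-plus. In these 3 members too whisker-minus 2 and 3 lay far above the other 4 libraries. Aldh1l1 had 2.76, 14.5 and 13 CPM in whisker-minus and 2.41, 2.71 and 3.62 CPM in whisker-plus. Cldn10, a claudin, had 2.55, 11.1 and 8.37 CPM in whisker-minus and 2.09, 3.54 and 2.42 CPM in whisker-plus. At these lower levels too the groups overlapped through whisker-minus 1. Gfap had 2.98, 11 and 8.37 CPM in whisker-minus and 2.59, 3.56 and 3.28 CPM in whisker-plus, and its change of -0.89 on the log2 scale did not pass (limma adjusted p = 0.382, and 0.0507 with replicate numbers as a block).

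**Figure D2:**
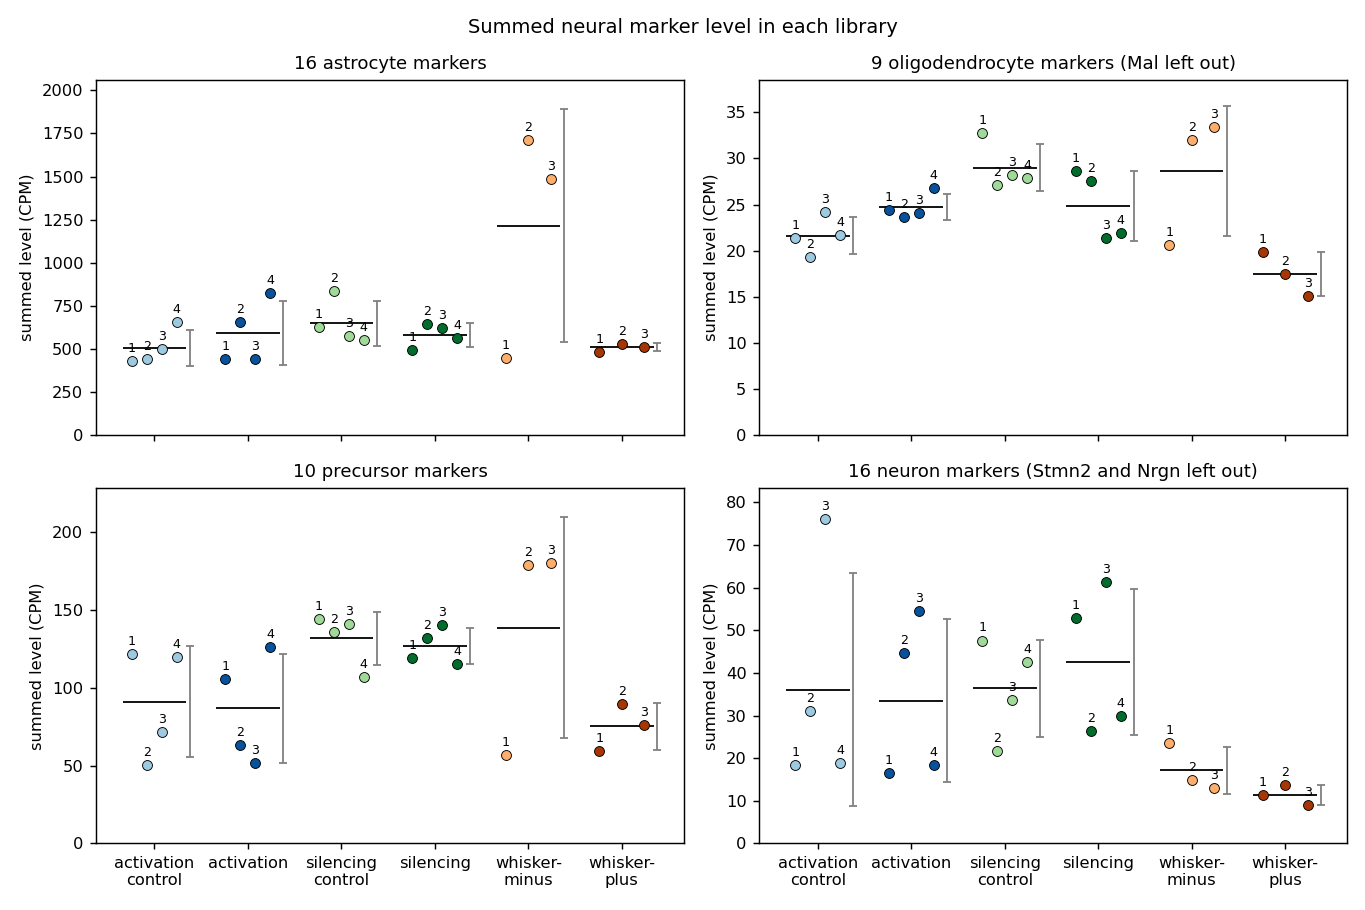
Summed CPM of each marker class in each library (points, numbered by replicate), with the group mean (black bar) and SD (grey bar) for 3 or 4 libraries a group. Mal is left out of the oligodendrocyte sum and Stmn2 and Nrgn of the neuron sum; whisker-minus 2 and 3 stand apart in the astrocyte panel, at 1714 and 1483 CPM.

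All 16 astrocyte markers had a log2 fold change below 0 for whisker-plus against whisker-minus, from -1.56 for Acsbg1 to -0.18 for Fgfr3, with a median of -1.17. Of all 12776 tested genes 64% were below 0, with a median of -0.068. Without pairing the libraries, limma called none of the 12776 genes (0%) at a Benjamini-Hochberg adjusted p under 0.05, and 1656 genes, 14 of 34 tested members among them, had an unadjusted p under 0.05. edgeR called 0 genes too, and DESeq2 called 406 genes (3.18%; 1.58% lower, 1.6% higher), with Aldh1l1, Gja1 and the neurotensin receptor Ntsr2 lower and Mal higher.

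The 3 libraries of each whisker group share replicate numbers. With the number as a block, limma called 1097 genes (8.59%; 5.6% lower and 2.99% higher), and 11 of the 34 tested members were among them. The 10 astrocyte markers called lower in that fit were Acsbg1 (log2 fold change -1.56 ± 0.35 SE, adjusted p = 0.0256), Aldh1l1, Aldoc, Aqp4, Atp1b2, Cldn10, Gja1 (-0.55 ± 0.12, adjusted p = 0.0258), Gpr37l1 (-1.49 ± 0.34, adjusted p = 0.0267), Slc1a2 (-1.36 ± 0.32, adjusted p = 0.0311) and the glutamate transporter Slc1a3 (-1.21 ± 0.28, adjusted p = 0.0287). limma draws the SE of each gene toward the spread of genes of similar level, so these SE do not measure the spread of the 3 pairs alone. The pairs did not act alike: Acsbg1 had log2 ratios of -0.083, -2.328 and -2.275 in pairs 1, 2 and 3. The summed astrocyte level had a log2 ratio of 0.11 in pair 1, of -1.69 in pair 2 and of -1.53 in pair 3. Pair 1 had 9 of the 16 members lower in whisker-plus with a median of -0.016, and pairs 2 and 3 had all 16 lower, with medians of -1.92 and -1.66.

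The calls depended on which libraries entered the fit. Without whisker-minus 1, limma without the block called 352 genes (2.67%; 2.48% lower, 0.19% higher), and 16 members were among them, all lower: 15 of the 16 astrocyte markers, that is all but Sox9, and Ptprz1. Without any other library of the experiment it called no gene. With the block, 25 members were called without pair 1 (2381 genes, 18.3%; 13.7% lower, 4.55% higher), 8 without pair 2 (689 genes, 5.36%; 3.16% lower, 2.19% higher) and 0 without pair 3 (1 gene). With whisker-minus 2 and 3 both left out, 12 of the 16 astrocyte markers were above 0, the median was 0.11 and no gene was called, in a fit that lends the single whisker-minus library the spread of the others. In bulk libraries more cells of a type and more RNA per cell cannot be told apart.

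**Figure D3:**
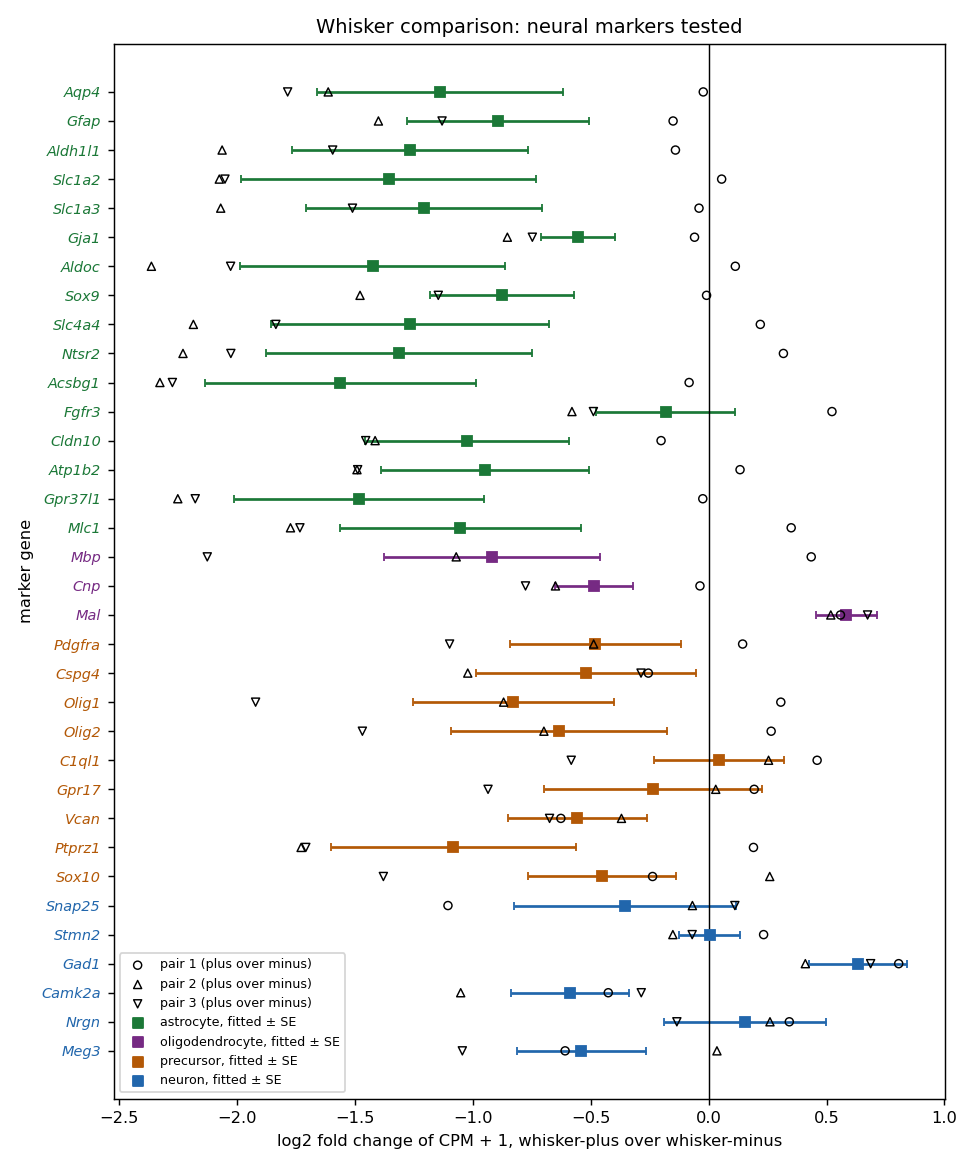
Log2 fold change of CPM + 1, whisker-plus over whisker-minus, for the 34 members tested (squares with SE, n = 3 libraries a group), with the ratio of each numbered pair as open symbols. The astrocyte markers sit between -1.56 and -0.18, and their pair 1 symbols lie near 0 while those of pairs 2 and 3 lie far to the left.

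Other cell classes moved only in part with these libraries. A second list of 15 astrocyte genes, not among the members, had whisker-minus 2 and 3 as its highest 2 libraries in 15 of 15, and 14 of 14 tested were below 0 (median -1.12). For example, Gjb6, another gap junction gene, reached 42.7 CPM in whisker-minus 2 and Slc7a10, an amino acid transporter, 20.4 CPM in whisker-minus 3. The same order held for 6 of 6 further precursor genes and 4 of 6 smooth muscle genes, but for 0 of 12 endothelial, 0 of 8 pericyte and 0 of 8 microglial genes. The summed smooth muscle level was 86.3, 1392 and 468 CPM in whisker-minus and 141, 419.5 and 302 CPM in whisker-plus, and the pericyte level was 1059, 869 and 528 CPM against 1019, 697 and 618 CPM. The endothelial level was 34730, 34600 and 32870 CPM against 34480, 34940 and 33750 CPM. The part of these other cells in the astrocyte result was not tested.

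Outside the whisker experiment the summed astrocyte level varied less. It was 428, 442, 498 and 653 CPM in activation control 1 to 4 and 442, 658.5, 441 and 822 CPM in activation 1 to 4. In silencing control 1 to 4 it was 629, 838, 577 and 553 CPM, and in silencing 1 to 4 it was 492, 644, 621 and 561 CPM. Library 4 was the highest of its group for 13 of 16 astrocyte markers in the activation controls and for 14 of 16 in the activation group, where 13.2% and 22.8% of all tested genes had their highest value. Silencing 1 was the lowest of its group for 13 of 16.

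**Figure D4:**
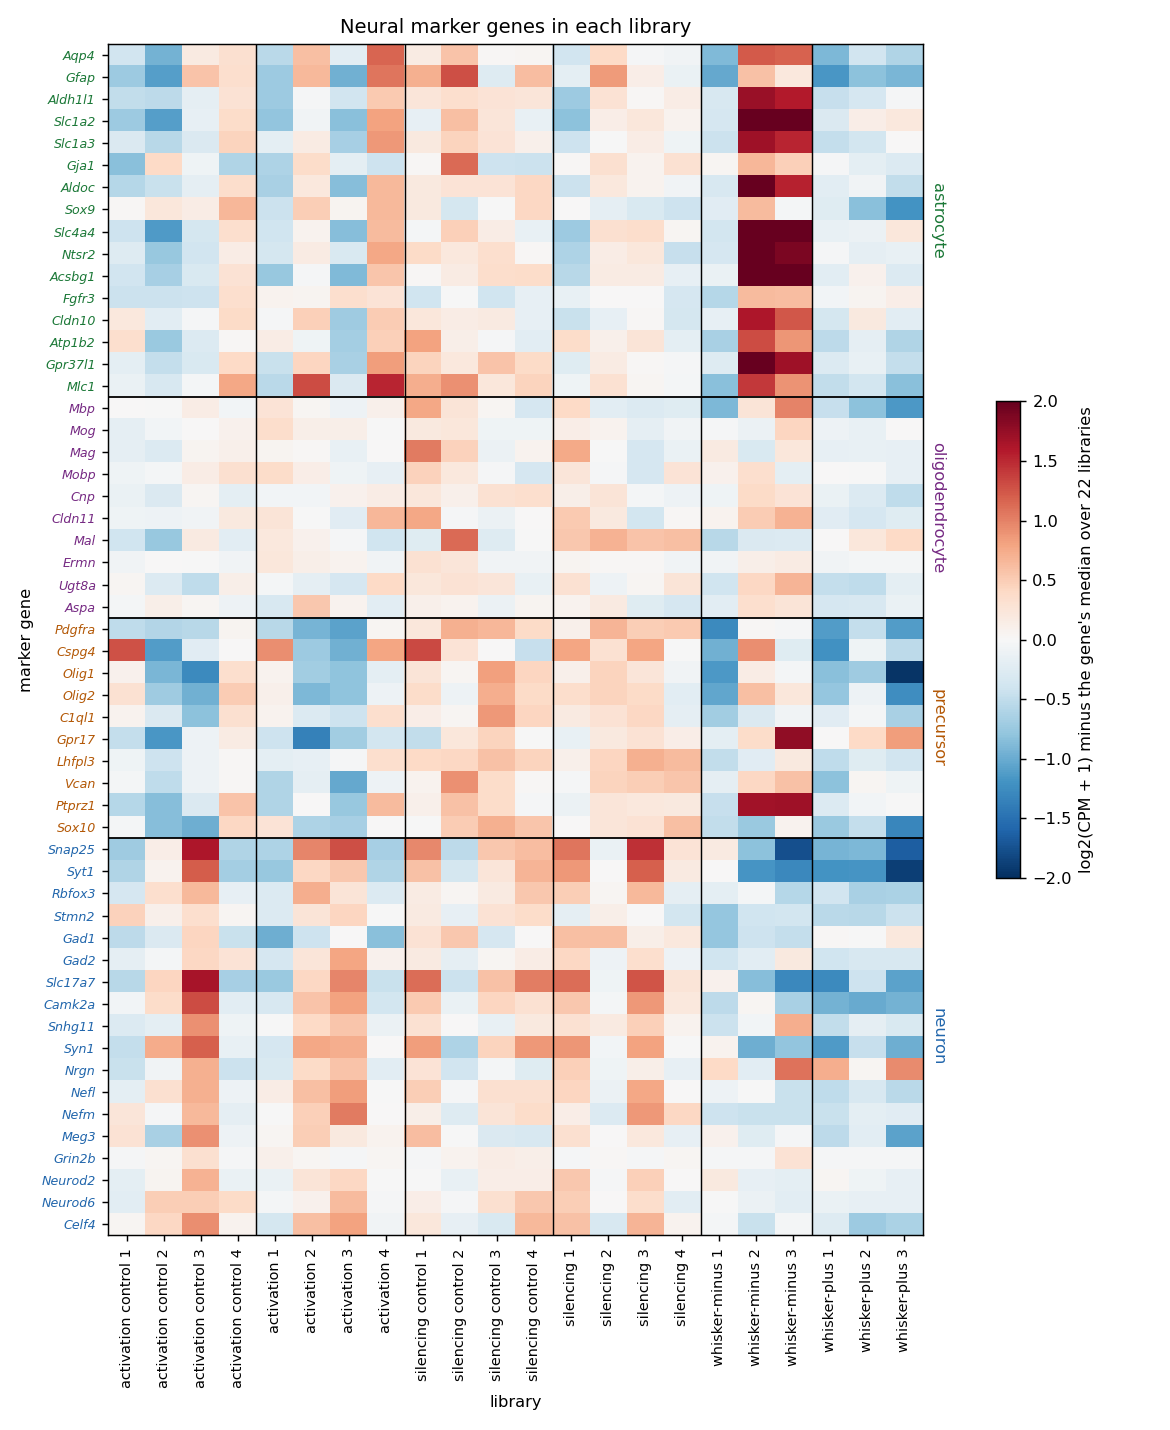
The 54 members (rows, grouped by class) in the 22 libraries (columns, grouped by treatment), as log2(CPM + 1) minus the median of that gene. Red marks levels above and blue levels below the gene's median; the astrocyte block is red in whisker-minus 2 and 3 and the neuron block in activation control 3 and silencing 3.

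Myelin transcripts were near the detection limit in most libraries, with Mal, Cnp and, at a lower level, Mbp (22 to 234 reads a library) as the exceptions. Mog, a myelin surface protein, reached at most 0.526 CPM, was at 0 in 2 libraries and had 3 reads or fewer in 11. Ermn, a cytoskeletal protein of myelinating cells, was at 0 in 8 libraries. The adhesion protein Mag, the myelin proteins Mobp and Cldn11, the lipid enzyme Ugt8a and the acetylaspartate enzyme Aspa stayed at or below 1.59 CPM. Ugt8a had 0.225, 1.15 and 1.58 CPM in whisker-minus and 0.16, 0.133 and 0.403 CPM in whisker-plus, with whisker-minus 2 and 3 again the highest. Of the 10, Mal, Cnp and Mbp passed the filter of 1 CPM and were tested in the fits of all libraries.

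Mbp, a main protein of compact myelin, was measured at 0.659, 2.69 and 5.12 CPM in whisker-minus and at 1.24, 0.758 and 0.403 CPM in whisker-plus. Whisker-minus 1 lay inside the whisker-plus range, and the change of -0.92 ± 0.46 on the log2 scale did not pass (limma adjusted p = 0.454, and 0.183 with the block). In the DREADD groups Mbp stayed between 1.46 and 4.28 CPM. Cnp, a myelin enzyme that other cells also express, was 5.45 CPM per kilobase on average and varied least of the class, from 13.3 to 25.5 CPM. It had 18.1, 25.5 and 23.6 CPM in whisker-minus and 17.6, 15.9 and 13.3 CPM in whisker-plus, groups that did not overlap, with a change of -0.49 ± 0.17 (adjusted p = 0.298).

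Mal, a membrane proteolipid of myelin and of apical transport, stood apart from its class. It held 97.5% of the reads of the 10 oligodendrocyte markers and averaged 337 CPM per kilobase, against 0.12 for the median member of its class and 431 for the median endothelial marker. It was measured at 580, 698 and 709 CPM in whisker-minus and at 855, 1000 and 1131 CPM in whisker-plus, so every whisker-plus library lay above every whisker-minus library. All 3 pairs gave similar ratios, 0.56, 0.52 and 0.67 on the log2 scale. Its change was 0.58 ± 0.13 (limma adjusted p = 0.217) without and 0.58 ± 0.058 (limma adjusted p = 0.00195) with the block. It was the only member called higher in the blocked fits of all libraries. With the block it was also among the members called without pair 1 and without pair 2.

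In the DREADD experiments Mal was measured at 647, 505, 972 and 741 CPM in activation control 1 to 4 and at 991, 907.5, 842 and 646 CPM in activation 1 to 4, and these groups overlapped. It had 722.5, 1885, 711.5 and 855 CPM in silencing control 1 to 4 and 1248, 1392, 1271 and 1295 CPM in silencing 1 to 4. Silencing control 2 alone lay above the silencing group, and the other 3 controls lay below it. The fitted log2 fold change of Mal for silencing was 0.45 ± 0.28 and did not pass (limma adjusted p = 0.454). Without silencing control 2 it was 0.77 ± 0.1 (limma adjusted p = 0.00184), in a fit that called 1504 genes (11.5%; 7.35% lower, 4.11% higher). That fit also called Gja1 higher (0.46 ± 0.13, adjusted p = 0.0468) and Gpr37l1 lower (-0.49 ± 0.1, adjusted p = 0.0193). Silencing control 2 held 263 CPM of Gja1 and the other controls 87.7 to 121 CPM.

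Precursor markers lay between the astrocyte and the myelin markers in level per length. Their highest member per length was the transcription factor Olig1, at 5.49 CPM per kilobase, followed by Gpr17, a receptor of committed precursors, at 2.6, and Cspg4 at 2.44. Vcan, a matrix proteoglycan, was the lowest of the 9 with a known length, at 0.367. C1ql1, a secreted synaptic organiser, and Lhfpl3 reached 1 CPM in 15 and 8 libraries, and the lineage factors Olig2 and Sox10 averaged 1.47 and 0.778 CPM per kilobase.

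The receptor Pdgfra had 5.9, 15.8 and 15.4 CPM in whisker-minus and 6.62, 11 and 6.64 CPM in whisker-plus. Ptprz1, a receptor phosphatase, had 14.8, 69 and 69.7 CPM in whisker-minus and 17.1, 20.1 and 20.6 CPM in whisker-plus. Gpr17 had 10.7, 16.1 and 44.5 CPM in whisker-minus and 12.3, 16.5 and 22.8 CPM in whisker-plus. Ptprz1 followed the astrocyte order, with whisker-minus 2 and 3 far above the rest, whereas for Gpr17 whisker-minus 3 alone stood out. In the whisker comparison 8 of 9 tested precursor markers were below 0, with a median of -0.52, and 6 of 10 had whisker-minus 2 and 3 as their highest 2 libraries. The changes of Ptprz1 (-1.08 ± 0.52, adjusted p = 0.438, and 0.051 with the block), Pdgfra (-0.48 ± 0.36, adjusted p = 0.635) and Olig1 (-0.83 ± 0.43, adjusted p = 0.471) did not pass.

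In the activation experiment the summed precursor level was 122, 50.5, 71.7 and 120 CPM in the controls and 106, 63.5, 51.4 and 126 CPM in the activation group. Libraries 1 and 4 of both groups were high and libraries 2 and 3 low. Cspg4, itself part of that sum, was highest in libraries 1 and 4. It had 60.8, 10.8, 20.9 and 24.8 CPM in the controls and 47.4, 14.4, 12.2 and 42.9 CPM in the activation group. Without Cspg4 the sum was 60.9, 39.7, 50.9 and 95.1 CPM in the controls and 58.5, 49, 39.3 and 83.2 CPM in the activation group. The pericyte level in the same libraries was 2156, 753, 998 and 1081 CPM and 2037, 1290, 747 and 1214 CPM, and its part in the Cspg4 values was not tested. The silencing experiment held the precursors steadier, at 144, 136, 141 and 107 CPM in the controls and 119, 132, 140 and 115 CPM in the silencing group.

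Neuron transcripts were scarce and followed a library order of their own. Leaving out Stmn2 and Nrgn, the other 16 markers summed to 18.4, 31, 76 and 18.9 CPM in activation control 1 to 4 and to 16.5, 44.7, 54.5 and 18.4 CPM in activation 1 to 4. In silencing control 1 to 4 they summed to 47.6, 21.7, 33.5 and 42.6 CPM and in silencing 1 to 4 to 52.8, 26.5, 61.4 and 29.9 CPM. In the whisker experiment they summed to 23.5, 14.9 and 13 CPM in whisker-minus and to 11.4, 13.7 and 8.95 CPM in whisker-plus. Activation control 3 was the highest of its group for 17 of 18 neuron markers and activation 3 for 14 of 18, where 23.1% and 33.1% of all tested genes had their highest value. In the activation experiment library 3 was thus high and libraries 1 and 4 low in the controls and in the activation group alike.

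Snap25, a protein of vesicle fusion, had 3.32, 6.74, 20.9 and 3.7 CPM in activation control 1 to 4 and 3.64, 13, 16.3 and 3.48 CPM in activation 1 to 4. It had 12.9, 3.93, 9.25 and 9.86 CPM in silencing control 1 to 4 and 14, 5.49, 18.4 and 7.53 CPM in silencing 1 to 4. In the whisker experiment it had 7.02, 3.01 and 1.1 CPM in whisker-minus and 2.73, 2.82 and 1.26 CPM in whisker-plus. Whisker-minus 1, the lowest of its group in all 16 astrocyte markers, was the highest of the 6 libraries for Snap25, one of 7 of the 18 neuron markers with that order. The calcium sensor of vesicle release Syt1 spanned 60.2-fold between its lowest and highest library, the vesicular glutamate transporter Slc17a7 23.9-fold, Syn1, a vesicle-binding phosphoprotein, 19.5-fold, and Snap25 19.1-fold. Slc17a7, which marks cortical glutamatergic neurons, had 1.36, 3.66, 9.94 and 1.19 CPM in activation control 1 to 4 and 1.06, 3.63, 5.86 and 1.56 CPM in activation 1 to 4, again with library 3 highest and library 2 next in both groups.

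Stmn2, a microtubule regulator of growing axons, and Nrgn, a calmodulin-binding postsynaptic protein, held the most reads of the neuron markers. Stmn2 held 53.7% and Nrgn 16.8% of the reads of the 18 neuron markers, and they averaged 10.1 and 12.2 CPM per kilobase, where the median neuron marker averaged 0.19. Stmn2 stayed between 33 and 79.3 CPM, a 2.4-fold range, and Nrgn between 10.8 and 33 CPM, a 3.05-fold range. These are the narrowest ranges among the 12 neuron markers with reads in every library. Nrgn had 10.8, 14.3, 25.3 and 10.9 CPM in activation control 1 to 4 and 12.1, 19.9, 22.8 and 13 CPM in activation 1 to 4, with library 3 highest and library 2 next, as for Snap25. Stmn2 had 79.3, 61.3, 72.8 and 59.1 CPM in activation control 1 to 4 and 47, 69, 77.8 and 57 CPM in activation 1 to 4, without the peak in library 3 that Snap25 showed in the controls. In the whisker groups Stmn2 had 33, 43.3 and 44.4 CPM in whisker-minus and 39, 38.9 and 42.3 CPM in whisker-plus, a change of 0.0039 ± 0.13.

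Transmitter genes were lower still. Camk2a, a synaptic kinase gene whose promoter drives the transgene, had 2.66, 3.9, 8.46 and 2.31 CPM in activation control 1 to 4 and 2.04, 4.65, 5.68 and 1.96 CPM in activation 1 to 4. In the whisker experiment it had 1.66, 2.92 and 1.42 CPM in whisker-minus and 0.983, 0.89 and 0.988 CPM in whisker-plus. These groups did not overlap, as for 13.4% of all tested genes in that direction. The change of Camk2a, -0.59 ± 0.25, did not pass (limma adjusted p = 0.373, and 0.17 with the block). The glutamate decarboxylase Gad1 had 1.11, 1.72 and 1.6 CPM in whisker-minus and 2.69, 2.61 and 3.18 CPM in whisker-plus. These Gad1 groups did not overlap, and its change of 0.63 ± 0.21 did not pass (adjusted p = 0.291, and 0.099 with the block), while its partner Gad2 stayed at or below 0.504 CPM in the same 6 libraries. The neurofilament genes Nefl and Nefm stayed at or below 1.61 and 1.8 CPM, the transcription factors Neurod2 and Neurod6 below 1 CPM in every library, and the receptor subunit Grin2b was at 0 in 11 libraries. Of the 18 neuron markers 12 were tested for activation, 11 for silencing and 6 in the whisker experiment.

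Neuronal activation changed none of the 40 members tested past the threshold. limma called 18 of 12872 genes (0.14%) without and 234 (1.82%) with the block, and no member was among them. Without the block 1 member, Fgfr3, had an unadjusted limma p under 0.05, as had 1470 of the 12872 genes. edgeR and DESeq2 called 2 and 374 genes and no member. Astrocyte markers were above 0 in 13 of 16, with a median of 0.18 (all genes: median -0.0072, 51.6% below 0), but the pairs were divided. Pairs 2 and 4 had 15 and 14 of the 16 higher in the activation group, and pairs 1 and 3 had 12 and 14 lower. Without activation 4 the count fell to 5 above 0 and the median to -0.07, and without activation 1 all 16 were above 0. The largest astrocyte change was that of Aqp4, 0.46 ± 0.38 (adjusted p = 0.698), and Fgfr3 had 0.41 ± 0.17 (adjusted p = 0.378).

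Fgfr3 was measured at 70.7, 71.3, 71.6 and 121.5 CPM in activation control 1 to 4 and at 100.3, 99.5, 121 and 116 CPM in the activation group. Activation control 4 reached the level of the activation group, and the other 3 controls lay below it. No member had groups that did not overlap, while 3.65% of all tested genes did so upward and 3.5% downward. Neuron markers were split, with 4 of 12 above 0 and a median of -0.068, and Gad1 had a log2 fold change of -0.35 ± 0.27 (adjusted p = 0.678). Without activation control 3 the count above 0 was 10 of 12, with a median of 0.28. Of the precursors Vcan had -0.32 ± 0.22 (adjusted p = 0.649).

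Silencing changed none of the 40 members tested past the threshold either. limma called 23 of 13017 genes (0.177%) without and 136 (1.04%) with the block, and edgeR and DESeq2 called 24 and 461, with no member among any of them. Without the block, unadjusted limma p values under 0.05 were found for 5 of the 40 members and for 2096 of the 13017 genes. Astrocyte markers were below 0 in 14 of 16, with a median of -0.33, where 66.3% of all tested genes were below 0 with a median of -0.073. In pairs 1 to 4, 14, 13, 11 and 12 of the 16 were lower in the silencing group, with medians of -0.635, -0.1125, -0.114 and -0.1985. In pairs 3 and 4 these shares are near that of all genes in the group fit, and a share of all genes by pair was not computed. The summed astrocyte level had log2 ratios of -0.355, -0.379, 0.106 and 0.022 in the same pairs. The sum, unlike the median of the members, was thus not lower in pairs 3 and 4. Gpr37l1 was the only member whose groups did not overlap (7.3% of all tested genes did so downward and 2.25% upward), with 35.4, 29.9, 38.4 and 33.6 CPM in the controls and 21.5, 28.7, 26 and 25.2 CPM in the silencing group. Its change was -0.42 ± 0.11 (adjusted p = 0.135). Mlc1, a membrane protein of endfeet, had 18.8, 21.5, 12.9 and 15.2 CPM in the controls and 10.2, 13.7, 11.3 and 10.6 CPM in the silencing group, with a change of -0.52 ± 0.16 (adjusted p = 0.169, and 0.0921 with the block).

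Neuron markers had 10 of 11 above 0 on silencing, with a median of 0.15, and the exception was Stmn2 (-0.27 ± 0.14, adjusted p = 0.365). In pairs 1 to 4, 14, 13, 16 and 4 of the 18 were higher in the silencing group, with medians of 0.079, 0.0845, 0.4505 and -0.2755. Pair 4 thus went the other way. The log2 ratio of the summed neuron level was -0.038. Syt1 had the largest change, 0.28 ± 0.3 (adjusted p = 0.685), smaller than its standard error. Without silencing control 2, which was the lowest of its group for 13 of 18 neuron markers, 6 of 12 were above 0. In a fit with the block and without pair 2, 8 members were called (2399 genes, 18.4%; 13% lower, 5.39% higher), of which Acsbg1, Aldoc, Gpr37l1, Mlc1, Olig1 and Stmn2 were lower and Gja1 and Mal higher.

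**Figure D5:**
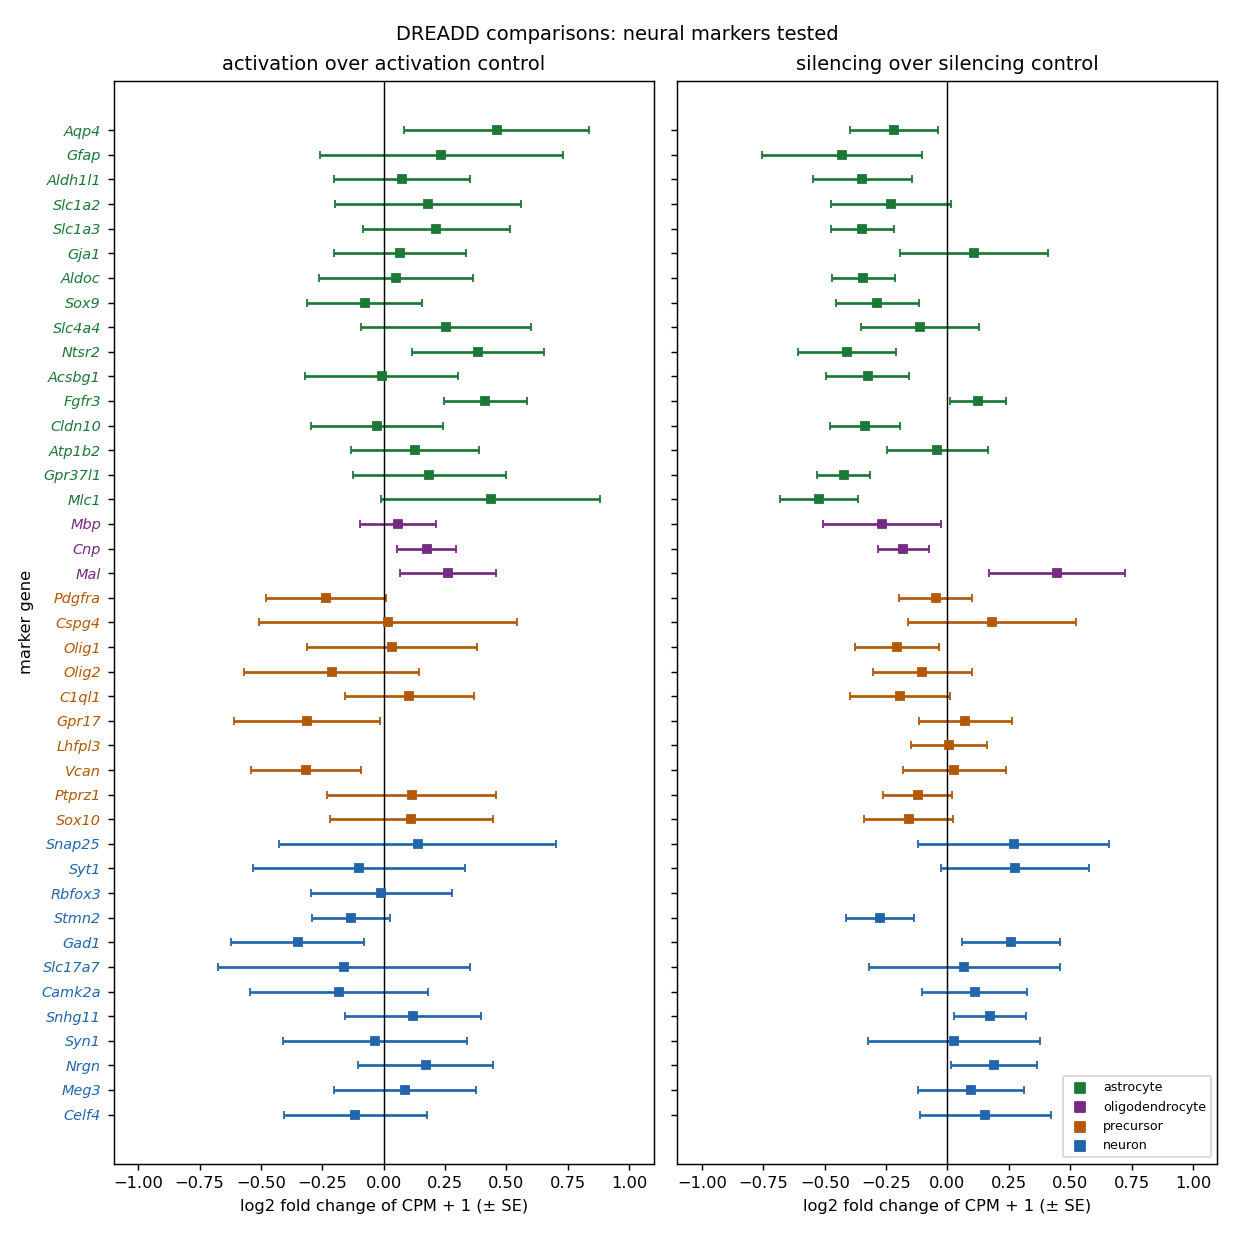
Log2 fold change of CPM + 1 with SE for the members tested in the activation (left) and silencing (right) comparisons, 4 libraries a group, coloured by class. Most astrocyte markers lie above 0 on the left and below 0 on the right, between 0.46 and -0.52, and none passed the threshold.

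The activation and silencing effects of the members were compared directly in a fit of the 16 DREADD libraries. That fit called 311 of 13464 genes (2.31%) without and 855 (6.35%) with the block, and none of the 42 members tested. The activation effect was above the silencing effect for 15 of 16 astrocyte markers, with a median difference of 0.4 on the log2 scale. Over all genes the median difference was 0.059, and 41.8% were below 0. The largest difference was that of Mlc1, 0.96 ± 0.53 (adjusted p = 0.39), and Ntsr2 had 0.8 ± 0.36 (adjusted p = 0.27). For 11 of 13 neuron markers the difference was below 0, with a median of -0.061, and without activation control 3 it was above 0 for 11 of 13. Gad1 had a difference of -0.61 ± 0.35 (adjusted p = 0.418, and 0.0628 with the block).

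The authors' deposited table marks genes as changed under a column headed p under 0.05 and over 10 CPM. It marks none of the members among 1372 genes for activation and 2 among 1323 for silencing, Gpr37l1 and Mlc1, both lower (authors' FDR 0.0908 and 0.121). The p of the mark is not adjusted. For the whisker comparison the authors' deposited table marks 16 members among 1234 genes, 15 of them lower: Aldh1l1 with a log2 fold change of -0.7 (FDR 0.0215), Sox9, Gpr37l1, Acsbg1, Gja1, Aldoc, Slc1a3, Ntsr2, Aqp4, Slc1a2, Slc4a4, Mlc1, Ptprz1, Olig1 and Cnp. Mal is the one marked higher, with 0.6 (FDR 0.000329). Of the 16, only Aldh1l1 and Mal had an authors' FDR under 0.05. The others ranged from 0.063 for Gja1 to 0.3585 for Mlc1. The fold changes of the astrocyte markers in the authors' deposited table, such as -0.43 for Acsbg1, are nearer 0 than those computed here from the CPM values. The submitters' processing notes name DESeq2 without a version, and the labels used here do not describe further how the authors' fold changes were made. The reason for the difference was not tested.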

How the data were processed

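RNA of CD31-sorted brain endothelial cells was sequenced as paired-end reads of 100 bases in 22 libraries, per the labels' protocols. The deposited table gives CPM (reads of a gene per 1000000 reads) for each library, scaled by the authors, and its values return whole reads within 0.01 read, so the depth of each library is known. The submitters' processing notes name HTSeq 0.6.1, the aligner TopHat2 2.0.11 with Bowtie2 2.2.1, DESeq2, SAMtools 0.1.19 and the build mm9. Counting settings and use of strand are not stated there, so overlapping and antisense genes may share reads. The log2 fold changes and p-values quoted from the authors' deposited table are theirs. The 6 columns of group means were not used.

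Samples were grouped by their labels. The count test planned for counts was an alternative here because the deposited unit is CPM. The main test was limma 3.58.1 (R 4.3.3) on log2(CPM + 1), on genes that reached 1 CPM in a number of libraries equal to the smaller group, with Benjamini-Hochberg adjustment over all tested genes. Fold changes are on that scale, which understates changes of low genes. The 3 comparisons used only their own libraries, and the difference of the DREADD effects used 16. Alternatives were a pseudocount of 0.1, testing without the filter, TMM and RLE scaling, replicate numbers as a block, edgeR 4.0.16 and DESeq2 1.42.0 on the recovered reads, and each library left out. The scripts were tested on simulated data. Summed levels of a class were only described.

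Same-numbered libraries deviated together from their group means, with correlations of 0.277 to 0.455 for activation, 0.142 to 0.597 for silencing and 0.462 to 0.617 for the whisker pairs, so the numbers were taken as pairs. This comes from the data and not from the labels. No label says that libraries came from separate litters, so p-values measure the spread between these libraries. The SE and p-values of limma also draw on the spread of other genes of similar level.

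The members and the other marker lists were chosen with earlier results of these data known. Named for description were the 4 members of each class with the highest mean CPM, those past the threshold, the largest change of each class in each comparison, and textbook markers of each class. CPM per kilobase used the union of exons in the GENCODE annotation of GRCm38.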

Additional observations from a re-analysis of the deposited data

Results flagged for a closer look

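Among 140 groups of 4 DREADD libraries, 1 library stood far from the other 3 in 7, where chance gives about 7 (1 in 20 groups). The groups are not independent, since Mal holds 97.5% of the oligodendrocyte reads and was flagged alone and in the sum. The count therefore cannot decide whether chance gave these libraries. Fgfr3 reached 121.5 CPM in activation control 4, where the next control had 71.6 CPM. Pdgfra reached 16.2 CPM in the same library, with 10.7 CPM next. Mal reached 1885 CPM in silencing control 2, with 855 CPM next, and with it the oligodendrocyte sum reached 1912 CPM, with 883 CPM next. Ugt8a was lowest among the silencing controls at 0.456 CPM, with 0.896 CPM next. Mbp was highest in the silencing group at 3.1 CPM, with 1.66 CPM next, and Ptprz1 lowest there at 19.2 CPM, with 24.1 CPM next. The activation and silencing effects differed past the threshold for none of the 42 members tested. Groups of 3 whisker libraries were not examined in this way.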

How the results depend on the processing

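Direction counts as reversed only where the change was at least its standard error. The number of genes called for activation, 18, became 0 with RLE scaling, TMM scaling or no filter, 6 with a pseudocount of 0.1, 2 with edgeR, 374 with DESeq2 and 234 with the replicate block. For silencing, 23 became 35 with TMM scaling, 7 with no filter, 14 with a pseudocount of 0.1, 461 with DESeq2 and 136 with the replicate block. For the whisker comparison, 0 genes and 0 members became 406 and 4 with DESeq2 and 1097 and 11 with the replicate block. For the difference of the DREADD effects, 311 became 111 with no filter, 760 with DESeq2 and 855 with the replicate block. The block changed no other call of a member. RLE and TMM scaling left the majority direction of the astrocyte and neuron markers as reported in each comparison that had one.

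With single libraries left out, genes called ranged from 0 to 8 for activation, 0 to 1504 for silencing, 0 to 352 for the whisker comparison and 85 to 915 for the difference. With the block and a pair left out, they ranged from 5 to 50, 0 to 2399, 1 to 2381 and 279 to 1392. Members called ranged from 0 to 3 for silencing and 0 to 16 for the whisker comparison, and with the block from 0 to 8 and 0 to 25. These last fits, and those below without 2 libraries or without the top genes of a class, were chosen after seeing the data.

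Reversal was checked only for the 31 members named for description. With whisker-minus 2 and 3 both left out, 13 of these reversed, with log2 fold changes of 0.25 for Aqp4, 0.049 for Gfap, 0.047 for Aldh1l1, 0.36 for Slc1a2, 0.15 for Slc1a3, 0.063 for Aldoc, 0.033 for Cldn10, 0.22 for Atp1b2, 0.28 for Mlc1, 0.092 for Mbp, 0.36 for Pdgfra, 0.35 for Cspg4 and 0.35 for Ptprz1. That fit has 1 library in one group, which is assumed to vary like the others. The cause of these shifts was not tested.

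The summed oligodendrocyte level had a log2 ratio of 0.43 for silencing and 0.55 for the whisker comparison. As a mean over members these became -0.0701 and -0.32, and without Mal -0.23 and -0.69. The neuron sum had -0.075 in the whisker comparison and -0.57 without Stmn2 and Nrgn. With single libraries left out, the ratio for astrocytes ranged from 0.019 to 0.33 for activation, from -0.22 to -0.022 for silencing and from -1.65 to -0.68 for the whisker comparison. For oligodendrocytes these ranges were 0.11 to 0.42, 0.29 to 0.75 and 0.45 to 0.65. For precursors they were -0.32 to 0.15, -0.15 to -0.0067 and -1.28 to -0.44. For neurons they were -0.27 to 0.1, -0.18 to 0.077 and -0.15 to 0.024. Depth limits the myelin and neuron genes below 1 CPM, which were not tested.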

Other observations

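A second list of oligodendrocyte genes, chosen beside the members, held 1 gene that activation changed past the threshold. Tspan2, a tetraspanin of myelin that other cells also express, rose by 1.15 ± 0.18 on the log2 scale (limma adjusted p = 0.0495). That call is at the edge of the threshold: it held in 3 of 19 alternatives (the replicate block, the block without pair 4, and DESeq2) and was lost with RLE or TMM scaling, without the filter, with a pseudocount of 0.1, with edgeR and without any single library, with log2 fold changes of 0.92 to 1.32 and adjusted p from 1.82e-05 to 0.16 over the 19. In the direct comparison of the DREADD effects, the activation effect on Tspan2 was above its silencing effect by 1.45 ± 0.25 (limma adjusted p = 0.00706). That call held in 31 of 31 alternatives. For activation, 13 of 15 other astrocyte genes were above 0, with a median of 0.22, and none passed.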
